A study of Mus musculus with 6 samples.

Results

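Of the 1558 genes that GENCODE M21 annotates as small nucleolar RNA (snoRNA) or small Cajal body RNA (scaRNA), 47 had at least 10 counts summed over 6 libraries of RNase R-treated mouse brain RNA. They were chosen by that annotation and by that sum, out of 55604 genes in the deposited tables, and comprise 40 snoRNA and 7 scaRNA genes. The summed counts are therefore a description of how the genes were chosen. The 47 genes fall into 12 named Snord (C/D box), 5 named Snora (H/ACA box), 7 of the scaRNA biotype and 23 of the snoRNA biotype without such a name, 22 of which carry only a Gm number. A further 1270 annotated genes had 0 counts and 241 had 1 to 9 counts. At the edge of the rule, 6 genes had exactly 10 counts and 7 had 9.

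The 6 libraries came from brain of C57BL/6 mice, 3 after an intraperitoneal injection of 4-aminopyridine (4-AP) and 3 untreated. 4-AP blocks voltage-gated potassium channels, and the series' design describes it as the inducer of a status epilepticus model, a state of prolonged seizure. RNA of both groups was digested with RNase R, a 3′ to 5′ exonuclease that removes linear RNA and spares circles. The labels give no brain region, age, sex, dose or time, and do not say whether each sample was a separate animal, so p-values measure the spread between these samples. No undigested library was analysed here, so how far RNase R removed each RNA was not tested.

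Box C/D snoRNAs guide 2′-O-methylation and H/ACA snoRNAs guide pseudouridylation, mostly of ribosomal RNA, while scaRNAs guide the same changes on spliceosomal RNAs in Cajal bodies. In mammals most of them are cut out of introns of host genes, and protein complexes bound to their boxes protect their ends. Neurons are known for a large imprinted array of C/D snoRNA copies in the host transcript Snhg14, whose loss is linked to Prader-Willi syndrome.

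The sequences below, from the GENCODE M21 transcripts on GRCm38 (mm10), are those on which the levels and contrasts turn. For Scarna2 the last 300 of its 414 bases are shown. Capitals mark box C (TGATGA) and box D (CTGA), or ACA in H/ACA-type sequences. They are the scaRNAs Scarna2 (chr3:108554338-108554751, minus strand), Scarna13 (chr12:105031075-105031349, minus strand), Gm25395 (chr1:87776938-87777209, plus strand) and Scarna6 (chr1:87784556-87784820, plus strand), the C/D snoRNAs Snord49a (chr11:62603450-62603521, plus strand) and Snord87 (chr1:9942463-9942549, minus strand), and the H/ACA snoRNA Snora57 (chr19:8888538-8888685, minus strand). The first scaRNAs hold most of the counts, Gm25395 and Scarna6 lie in one host gene, and the last pair had 0 counts in every 4-AP library.
Scarna2: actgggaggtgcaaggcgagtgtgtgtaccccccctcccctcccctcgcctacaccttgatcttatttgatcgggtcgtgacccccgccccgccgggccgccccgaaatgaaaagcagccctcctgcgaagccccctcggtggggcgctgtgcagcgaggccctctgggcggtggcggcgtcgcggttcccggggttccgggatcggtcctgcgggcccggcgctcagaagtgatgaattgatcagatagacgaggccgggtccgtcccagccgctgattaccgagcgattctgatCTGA
Scarna13: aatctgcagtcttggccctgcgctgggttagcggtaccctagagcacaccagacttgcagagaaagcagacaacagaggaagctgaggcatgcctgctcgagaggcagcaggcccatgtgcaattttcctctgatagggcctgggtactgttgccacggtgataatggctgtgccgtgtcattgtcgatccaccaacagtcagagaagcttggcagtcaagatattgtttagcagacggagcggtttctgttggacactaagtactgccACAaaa
Gm25395: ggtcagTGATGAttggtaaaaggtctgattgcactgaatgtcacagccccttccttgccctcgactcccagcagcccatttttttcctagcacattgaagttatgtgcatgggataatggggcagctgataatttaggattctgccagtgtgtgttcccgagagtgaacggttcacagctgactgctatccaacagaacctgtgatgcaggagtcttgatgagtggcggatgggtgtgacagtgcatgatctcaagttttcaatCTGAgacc
Scarna6: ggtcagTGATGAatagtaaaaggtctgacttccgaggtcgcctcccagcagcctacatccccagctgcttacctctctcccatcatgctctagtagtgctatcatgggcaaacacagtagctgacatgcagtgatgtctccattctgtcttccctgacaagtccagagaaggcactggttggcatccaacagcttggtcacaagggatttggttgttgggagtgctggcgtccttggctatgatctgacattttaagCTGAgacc
Snord49a: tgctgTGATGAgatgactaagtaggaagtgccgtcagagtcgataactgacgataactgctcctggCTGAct
Snord87: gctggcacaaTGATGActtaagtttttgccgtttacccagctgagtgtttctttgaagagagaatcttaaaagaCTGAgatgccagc
Snora57: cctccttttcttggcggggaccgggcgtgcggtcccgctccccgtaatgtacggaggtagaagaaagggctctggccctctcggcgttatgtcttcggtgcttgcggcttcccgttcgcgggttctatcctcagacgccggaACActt

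Motifs were searched on the transcript strand only, TGATGA within the first 30 bases, CTGA within the last 20 and ACA within the last 8. In the members the windows for TGATGA and CTGA did not meet, whereas CTGA and ACA can share bases. Both C/D boxes were found in 22 of 47 members (46.8%), beside 19.5% of the annotated snoRNAs and scaRNAs below 10 counts and 317 of all 1558. An ACA in a sequence without TGATGA and no shorter than the shortest annotated Snora gene, 121 bases, was found in 12 members (25.5%), beside 38.9% of those below 10 counts and 600 of all 1558. All 12 Snord members held CTGA and 8 of them TGATGA, and all 5 Snora members held the ACA. Of the 23 members without a class name, 11 were of the C/D type, 5 of the H/ACA type and 7 of neither. Gm25395 and Scarna6 share their first 12 and last 8 bases, and both hold the C/D pair. A missing match says only that these letters are not in the window.

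Total counts per library ran from 1507882 to 2721287 in the 4-AP group and from 2355610 to 3409055 in the controls. Levels are given as CPM (counts per 1e+06 of a library size corrected by the trimmed mean of M-values), on which a count of 3 equals 1.07 to 2.19 CPM in the 4-AP libraries and 0.778 to 1.34 CPM in the controls. The 4 neuron markers Snap25, Syt1, Rbfox3 and Map2 all had counts, and the liver gene Alb had 0. The other listed markers of other tissue had counts, Ttr 183, Hba-a1 60 and Myh6 14. Ttr had 8, 154 and 10 counts after 4-AP and 4, 0 and 7 in controls. Its log2 fold change was 4.27 (edgeR adjusted p = 0.334). The groups differed in other respects that accompany every contrast here. Ribosomal RNA genes held 3.03% to 8.51% of counts in the 4-AP libraries and 0.647% to 3.78% in the controls. Of 12 hypothalamus and thalamus markers 8 were tested and 3 rose in edgeR (Oxt, Avp and Trh). DESeq2 gave no adjusted p for any of the 8. Of the 8, 7 had a log2 fold change above 0, and Pomc had -0.60. The groups overlapped for Pomc, Prkcd, Rgs16 and Slc17a6. The 12 markers summed to 110 to 213 CPM after 4-AP against 26.3 to 141 CPM in controls. Of 7 cortical glutamatergic neuron markers 3 fell in edgeR and DESeq2 called 4, with 1263 to 1848 CPM against 2344 to 2424 CPM. The astrocyte transporter gene Slc1a2 fell (1132 ± 94.4 against 1748 ± 40.4 CPM, SD, n = 3 each, edgeR adjusted p = 0.0328). The other listed astrocyte markers, Gfap and Aqp4, had log2 fold changes of 0.26 and 0.38, with overlapping groups. The microglial receptor gene Cx3cr1 (374 ± 40.9 against 252 ± 26.2 CPM) and the neuronal gene Rbfox3 (101 ± 15.8 against 157 ± 18.2 CPM) were called by DESeq2 and not by edgeR (adjusted p = 0.0593 and 0.0604). The other listed microglial marker, Csf1r, had a log2 fold change of -0.02, with overlapping groups. The 4 neuron markers summed to 1800 to 2099 CPM against 2126 to 2545 CPM. The part of these differences in the results on snoRNAs and scaRNAs was not tested.

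The scaRNAs dominated the set. The 47 genes had 3941 counts in all, of which the 7 scaRNA genes held 3251 (82.5%), the 12 Snord genes 281 (7.13%), the 5 Snora genes 64 (1.62%) and the 23 others 345 (8.75%). Scarna2 and Scarna13 alone held 2694 counts (68.4%). With counts, lengths and libraries pooled in each class, the level was 117 CPM per kb of annotated sequence for the scaRNAs. It was 15.9 for Snord, 6.22 for Snora and 9.31 for the others. The median member had 16 counts, 40 of 47 had under 60, and 20 had counts in all 6 libraries, so most single levels rest on a few reads.

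Detection differed between the kinds of annotation. Of the genes named Snord 12 of 98 (12.2%), of those named Snora 5 of 42 (11.9%) and of the scaRNA biotype 7 of 51 (13.7%) reached 10 counts, beside 23 of 1367 others (1.68%). Genes whose exon overlaps an exon of another gene were rarely counted, in whichever orientation: 1 of 246 (0.407%) reached 10 counts, against 46 of 1312 (3.51%) without such overlap. The exception, Scarna13, shares 65 bases with the microRNA gene Mir3069. Among Snord genes 0 of 43 with a shared exon and 12 of 55 without (21.8%) were members, and among Snora genes 0 of 29 and 5 of 13 (38.5%). Of the 246, 14 had any count. How the authors assigned reads that fall on more than 1 gene is not stated in the labels, and its part in these shares was not tested. Long genes were frequent, with 8 of 38 over 200 bases reaching the sum, beside 14 of 1058 of 100 to 200 bases and 25 of 462 below 100 bases.

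Well-known abundant snoRNAs were nearly missing. The 10 annotated genes of U3, the C/D RNA needed for the first cuts of the ribosomal precursor, had 0 counts in every library. So had Snord13 and the U17 genes Snora73a and Snora73b, which also act in ribosomal precursor processing. Snord118 (U8, needed for the large ribosomal subunit) had 25 counts, at 0, 5 and 2 after 4-AP and 7, 9 and 2 without it. These groups overlap. A count of 0 here does not show that the RNA was missing from the tissue, and what kept these genes from being counted was not tested.

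Predicted folding differed between the classes. The median minimum free energy per 100 bases was -38.2 kcal/mol for Snora members, -36.5 for scaRNA members, -21.6 for Snord and -20.4 for the others, and -26.7 for the annotated genes below 10 counts. Over all annotated genes of these classes it was -35.3, -32.4, -21.2 and -26.7 in the same order. Median GC content of the members was 53.0%, 52.7%, 45.2% and 40.5%, again in that order. Median length was 132 bases for Snora, 272 for scaRNA, 84 for Snord and 81 for the others.

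Setting the 4-AP libraries against the controls addresses whether the level of any of these RNAs differed after treatment. Of the 47 members, 8 had enough counts for edgeR's quasi-likelihood test across 11388 genes, namely all 7 scaRNAs and Snord49a. edgeR called 0 of the 8 at a Benjamini-Hochberg adjusted p below 0.05, 0 had an unadjusted p below 0.05, and DESeq2 called 0 as well, with an adjusted p for 2 of the 8. Over all genes the same test called 0.843% in either direction (0.334% higher and 0.509% lower), and 13.9% had an unadjusted p below 0.05. With no filter on low counts all 47 entered a fit of 25727 genes, of which 1.27% were called (0.509% higher and 0.766% lower). There edgeR called 0 members, and 3 (6.38%) had an unadjusted p below 0.05, beside 8.62% of all genes. In bulk tissue, fewer cells of a type and less RNA per cell cannot be told apart.

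Scarna2, the most abundant member, guides 2′-O-methylation of the U2 spliceosomal RNA. It lies outside any annotated gene of its strand and had 167, 258 and 185 counts in 4-AP replicates 1 to 3, against 308, 336 and 180 in control replicates 1 to 3. Scaled, this was 109, 92.2 and 135 CPM (112 ± 21.7, SD, n = 3) against 96.8, 87.1 and 80.3 CPM (88.1 ± 8.28, SD, n = 3). The highest values were 4-AP replicates 3 and 1, while 4-AP replicate 2 lay within the control range, so the groups overlap. The log2 fold change of Scarna2 was 0.34 (SE 0.17, 95% interval -0.03 to 0.70, edgeR adjusted p = 0.413). It was 0.18 without 4-AP replicate 3, 0.49 without 4-AP replicate 2 and 0.11 with scaling by total counts.

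Scarna13, an H/ACA scaRNA in the lncRNA host Snhg10, had the highest level per length, with 306 CPM per kb against 231 for Scarna2. Its level was 83.4, 75.4 and 82.6 CPM after 4-AP (80.5 ± 4.42, SD, n = 3) and 85.5, 97.8 and 71.0 CPM in controls (84.7 ± 13.4, SD, n = 3). All 3 4-AP values lay inside the control range. The log2 fold change was -0.08 (SE 0.17, 95% interval -0.45 to 0.28, edgeR adjusted p = 0.896). For both of these RNAs the interval of the difference stays under a log2 change of 1 in either direction.

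**Figure D1:**
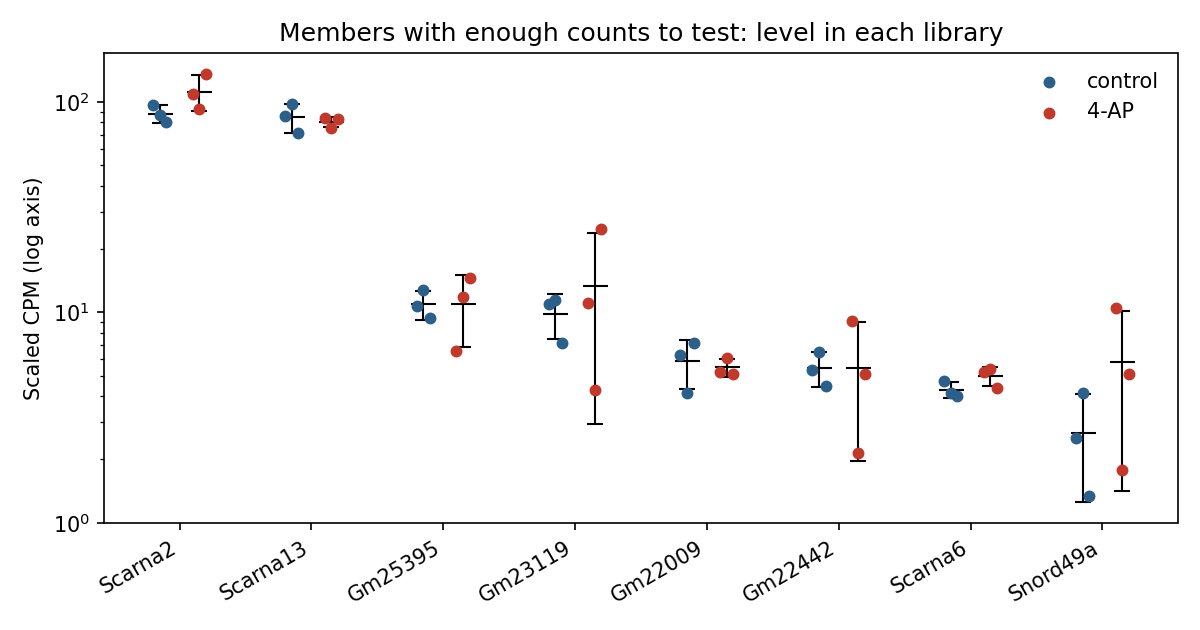
Level of each of the 8 tested members in every library, as scaled CPM on a log axis; blue points are control libraries, red points 4-AP libraries, and bars give the mean and SD of 3. Scarna2 and Scarna13 sit near 100 CPM in both groups, the other 6 near or below 25 CPM, and the 4-AP and control points overlap for every gene.

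The other 5 scaRNAs had 69 to 167 counts each over all libraries. Gm25395 and Scarna6 both lie in introns of Atg16l1, an autophagy gene on chromosome 1. Gm25395 had 6.52, 11.8 and 14.6 CPM after 4-AP and 10.7, 12.7 and 9.37 CPM in controls, a log2 fold change of -0.005 (95% interval -0.72 to 0.71). Scarna6 had 5.22, 5.36 and 4.39 CPM against 4.71, 4.15 and 4.02 CPM, a log2 fold change of 0.23 (95% interval -0.76 to 1.21). In both, the groups overlap.

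Gm23119 was the most uneven scaRNA, with 17, 12 and 34 counts after 4-AP and 35, 44 and 16 in controls, or 13.4 ± 10.5 and 9.85 ± 2.36 CPM (SD, n = 3 each). Its highest and lowest CPM both came from the 4-AP group, and the log2 fold change was 0.31 (95% interval -0.71 to 1.33). Gm22442, in the chromatin remodeller gene Chd3, ranged from 2.14 to 9.13 CPM after 4-AP and from 4.46 to 6.48 CPM in controls (log2 fold change -0.11, 95% interval -1.18 to 0.96). Gm22009, in the nuclear import gene Kpna4, ranged from 5.12 to 6.07 and from 4.15 to 7.14 CPM (log2 fold change -0.05, 95% interval -0.996 to 0.888). The intervals of Gm23119, Gm22442 and Scarna6 reach past a log2 change of 1 in at least 1 direction. The median log2 fold change of the 7 scaRNAs was -0.005, with 3 above 0, beside -0.008 for all genes tested.

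**Figure D2:**
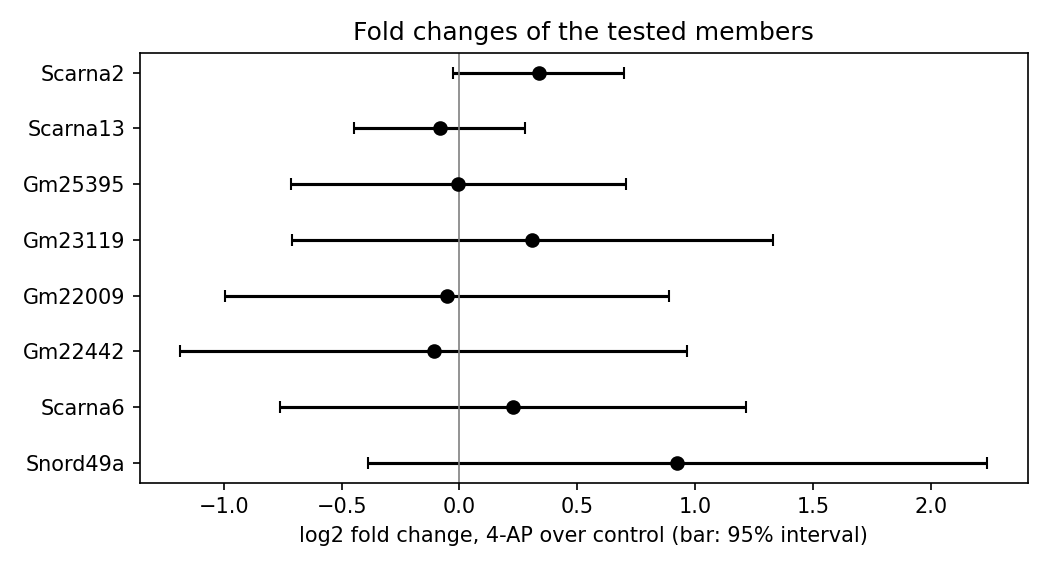
Log2 fold change of 4-AP over control for the 8 tested members, as points with 95% intervals from edgeR. Every interval includes 0; the narrowest belong to Scarna2 (-0.03 to 0.70) and Scarna13 (-0.45 to 0.28), the widest to Snord49a (-0.39 to 2.24).

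Among C/D snoRNAs only Snord49a passed the filter. It is encoded in the lncRNA host 2410006H16Rik beside Snord49b and had 16, 5 and 7 counts after 4-AP against 8, 16 and 3 in controls. This was 10.4, 1.79 and 5.12 CPM (5.78 ± 4.36, SD, n = 3) against 2.51, 4.15 and 1.34 CPM (2.67 ± 1.41, SD, n = 3). The highest value was 4-AP replicate 1, and 4-AP replicate 2 lay within the control range. The log2 fold change of Snord49a was 0.92 (SE 0.63, 95% interval -0.39 to 2.24, edgeR adjusted p = 0.567). It was 0.15 without 4-AP replicate 1 and 1.49 without 4-AP replicate 2. Its neighbour Snord49b, named after its values were seen, had 2, 3 and 0 counts against 3, 5 and 5, and its groups overlap.

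The next most counted C/D snoRNAs also overlapped between groups. Snord83b, in an intron of the ribosomal protein gene Rpl3, had 4, 9 and 3 counts after 4-AP and 6, 1 and 12 in controls. Snord17, in the sorting nexin gene Snx5, had 1, 2 and 6 against 1, 9 and 6. Scaled for depth, the highest level was control replicate 3 for Snord83b and 4-AP replicate 3 for Snord17.

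Without a filter, the 12 Snord members had a median log2 fold change of -0.06 with 4 above 0, the 5 Snora members 0.53 with 3 above 0, the 7 scaRNAs -0.04 with 3 above 0 and the 23 others -0.26 with 11 above 0. The median of all 47 was -0.04, beside -0.09 for all genes in that fit. Fitted values of genes at 0 in a group depend on the prior count, so these medians only describe the fit.

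The groups did not overlap in 6 of 47 members (12.8%), beside 17% of all genes with at least 10 counts (7.59% higher and 9.39% lower). All 6 are among the 40 members with 10 to 59 counts (15% of them), beside 12.5% of all genes in that range. Of the 6, 1 was higher after 4-AP (Snora31, 2.5% of the 40) and 5 were lower (12.5% of the 40), beside 5.8% and 6.68% of all genes with 10 to 59 counts. The lower ones were Snora57, Snora17, Snord87, Snord58b and Gm22771; the last 3 are named after their values were seen. Snora57 had 0 counts in every 4-AP library and 5, 1 and 9 in the controls, at least 3.07-fold lower against a floor of 3 counts over the group. Snord87, in the lncRNA host Snhg6, had 0 against 3, 2 and 8 counts, at least 2.66-fold lower by the same floor. Without control replicate 3, which held 9 and 8 of these counts, the bounds were 1.62-fold and 1.35-fold, and 0 members had an unadjusted p below 0.05 in the edgeR fit without filter. Both genes reached 10 counts through the controls alone, the deeper group, so their difference goes with how they were chosen. In the range of 10 to 59 counts, 2 of the 40 members had 0 counts in all 4-AP libraries, beside 1.7% of all genes.

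The other non-overlapping genes rest on as few reads. Snora17 had 1, 0 and 0 counts after 4-AP and 4, 4 and 4 in controls, Snord58b, in the ribosomal protein gene Rpl17, had 0, 2 and 0 against 3, 3 and 6, and Gm22771, in the ribosome assembly gene Tsr1, had 1, 1 and 0 against 5, 6 and 4. Snora31, in Tpt1, was the one with higher scaled levels after 4-AP, at 2, 3 and 2 counts against 3, 1 and 0. Gm24119, an H/ACA-type RNA in the mitochondrial carrier gene Slc25a3, was also named after its values were seen. It had 0, 0 and 3 counts against 4, 7 and 15, with overlapping groups and an adjusted p of 0.396 in the edgeR fit without filter. Snora17, Snord58b, Gm22771 and Gm24119 reached 10 counts in the controls alone, with 1 to 3 counts in the 4-AP group. Their differences therefore also go with how they were chosen. The other Snora members were Snora62 (1, 4 and 0 against 3, 2 and 0 counts) and Snora78 (3, 2 and 3 against 3, 3 and 1), and neither separated the groups.

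**Figure D3:**
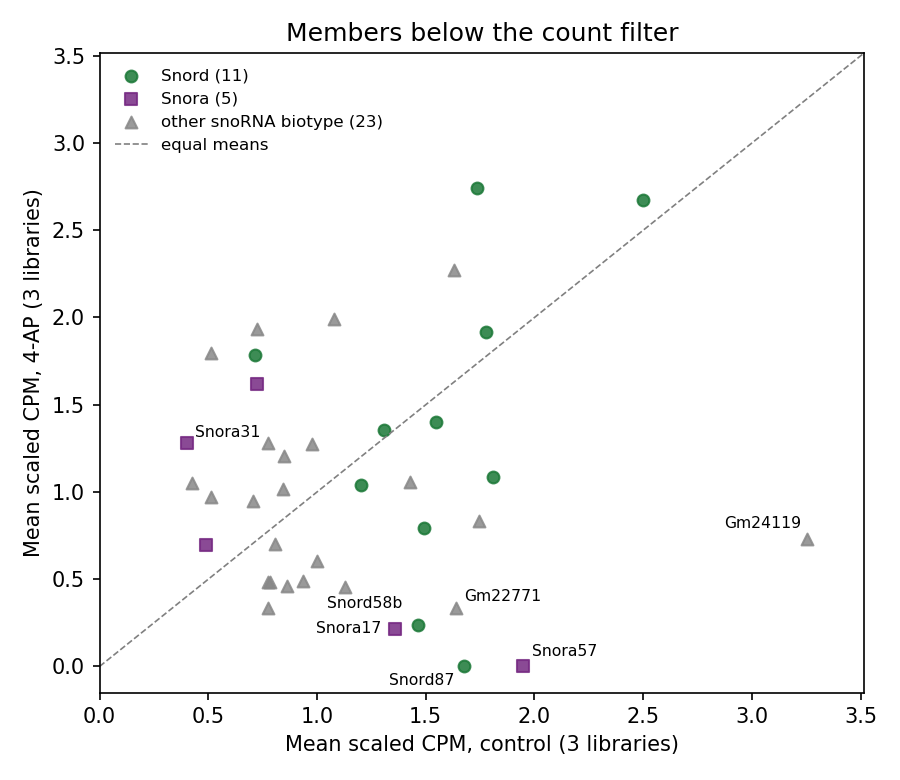
Mean scaled CPM of the 39 members below the count filter, controls on the x axis and 4-AP on the y axis (3 libraries each), with the line of equal means; colours and shapes give the class. Points lie on both sides of the line, Snora57 and Snord87 sit at 0 on the y axis, and Gm24119 lies farthest to the right.

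As shares of all gene counts, the classes overlapped between groups. The scaRNAs held 0.0214% ± 0.00292 after 4-AP and 0.0225% ± 0.0044 in controls (SD, n = 3 each). Snord held 0.00188% ± 0.000481 and 0.00208% ± 0.000553, and Snora 0.000348% ± 0.0000285 and 0.000518% ± 0.00017. The others held 0.00211% ± 0.00102 and 0.00256% ± 0.0000364. Here 4-AP replicate 1 was lowest and 4-AP replicate 3 highest of the 6 libraries, with the controls close together between them. On the scaled level the summed scaRNAs were 233 ± 37.5 CPM after 4-AP and 209 ± 22.4 CPM in controls, and all 47 members 280 ± 50.4 and 258 ± 12.05 CPM (SD, n = 3 each).

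**Figure D4:**
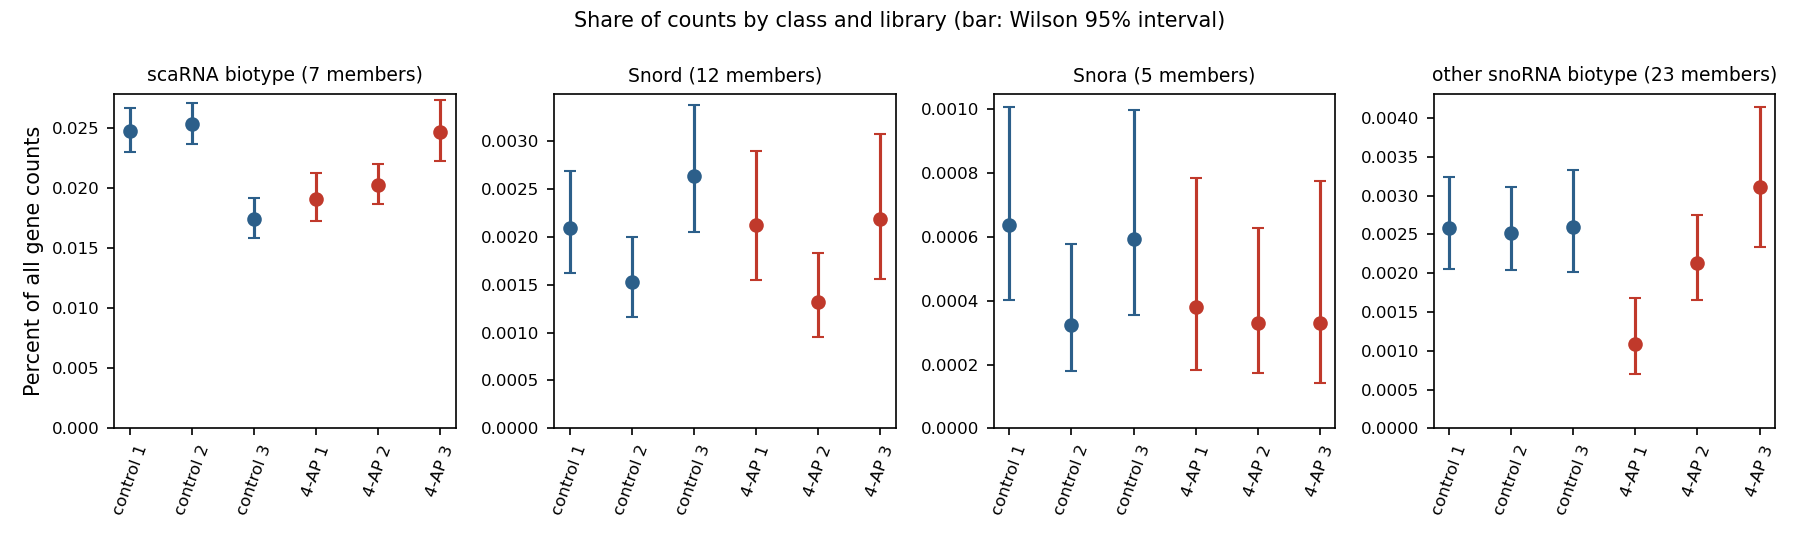
Share of all gene counts held by each class in every library, in percent, with Wilson 95% intervals that cover counting error only; blue points are controls, red points 4-AP libraries, and each panel has its own axis from 0. The groups overlap in every panel, and among the 23 others 4-AP replicate 1 is lowest and 4-AP replicate 3 highest.

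C/D snoRNAs outnumbered H/ACA snoRNAs in every library. Summed Snord counts were 5.57, 4.00 and 6.60 times the Snora counts in 4-AP replicates 1 to 3, and 3.28, 4.73 and 4.43 times in control replicates 1 to 3. The highest ratios came from 4-AP replicates 3 and 1, but 4-AP replicate 2 lay within the control range. The Snora counts behind these ratios were 5 to 9 per 4-AP library and 11 to 18 per control. Among them, Snora57 had 0 counts after 4-AP and 15 in controls, and Snora17 had 1 and 12. Among the Snord counts, Snord87 had 0 and 13, and Snord58b 2 and 12. Each of these genes reached 10 counts in the controls alone, so the ratios of the groups also go with how members were chosen. Over all libraries the ratio was 4.39, and 2.55 per kilobase. With the snoRNA members classed by their boxes instead of their names, 19 C/D-type and 10 H/ACA-type genes gave 2.48.

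The imprinted array in Snhg14 on chromosome 7 gave 12 of the 47 members, 10 copies of 79 bases and 2 copies of 94 bases. The 79-base copies carry a stretch complementary to the serotonin receptor mRNA Htr2c, the feature for which the Snord115 family is known, while the 94-base copies include the named Snord116l12. Shown are a 79-base copy, Gm24966 (chr7:59344073-59344151, minus strand), with its 18-base match to Htr2c in capitals, and the 94-base members Snord116l12 (chr7:59904755-59904848, minus strand) and Gm26365 (chr7:59693220-59693313, minus strand) with their boxes in capitals.
Gm24966: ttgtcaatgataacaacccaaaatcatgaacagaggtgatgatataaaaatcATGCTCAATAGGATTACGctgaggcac
Snord116l12: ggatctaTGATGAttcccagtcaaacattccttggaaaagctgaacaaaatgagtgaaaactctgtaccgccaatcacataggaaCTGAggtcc
Gm26365: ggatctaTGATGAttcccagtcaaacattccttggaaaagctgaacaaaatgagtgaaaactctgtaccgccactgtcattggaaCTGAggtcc

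Counted from the 5′ end with the base of Snord116l12 first, Gm26365 differs by A74C, C76G, A77T and A81T, an identity of 95.7%. Among the 10 members of 79 bases, pairwise identity ran from 81.0% to 97.5% with a median of 91.1% over 45 pairs. A perfect complement of at least 18 bases to Htr2c was present in 6 of these 10 members, in 103 of all 130 annotated 79-base copies and in 0 of 1350 annotated snoRNAs and scaRNAs outside Snhg14, where the longest was 16 bases. The shortest among the 10 was 12 bases, which equals the longest in the other 37 members.

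All 130 copies of 79 bases together had 358 counts, with 20.2, 20.7 and 32.9 CPM after 4-AP and 27.3, 21.3 and 24.5 CPM in controls. The highest and lowest values both came from 4-AP libraries, and the log2 ratio of the means was 0.013. The 68 copies of the Snord116 family had 79 counts, with 3.26, 5.003 and 8.04 CPM against 7.54, 4.41 and 3.57 CPM, again overlapping, and a log2 ratio of 0.07. The 10 other snoRNA genes inside Snhg14 are those left over by the cuts on length and identity, and none is a member. Of them, 4 are 78 bases long, 6 hold a perfect complement of at least 12 bases to Htr2c and 2 of at least 18. They had 32 counts, 7 after 4-AP and 25 in controls. Their level was 1.30, 1.07 and 1.46 CPM against 2.20, 2.59 and 3.57 CPM, without overlap and with a log2 ratio of -1.12. Snord116l12 itself had 2, 3 and 8 counts against 9, 4 and 3, and Gm26365 had 2, 5 and 1 against 4, 3 and 2. The host Snhg14 had 341 ± 13.3 CPM after 4-AP and 310 ± 22.1 CPM in controls (SD, n = 3 each; log2 fold change 0.14, SE 0.13, edgeR adjusted p = 0.723), and its groups did not overlap. Htr2c had 40.1 ± 10.1 and 25.5 ± 3.09 CPM (log2 fold change 0.66, SE 0.23, edgeR adjusted p = 0.162), also without overlap. Of all tested genes, 18.8% had groups that did not overlap (8.36% higher and 10.4% lower).

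Copies with a unique sequence held more of the counts along the array. The 37 copies of 79 bases with a unique sequence had 213 counts (median 4) and gave 8 members, whereas the 93 with an identical copy elsewhere had 145 counts (median 0) and gave 2. In the largest group of identical copies, 33 in number, each had 0 to 7 counts. Reads from identical copies cannot be told apart, so the counts per copy do not rank the copies by their RNA.

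**Figure D5:**
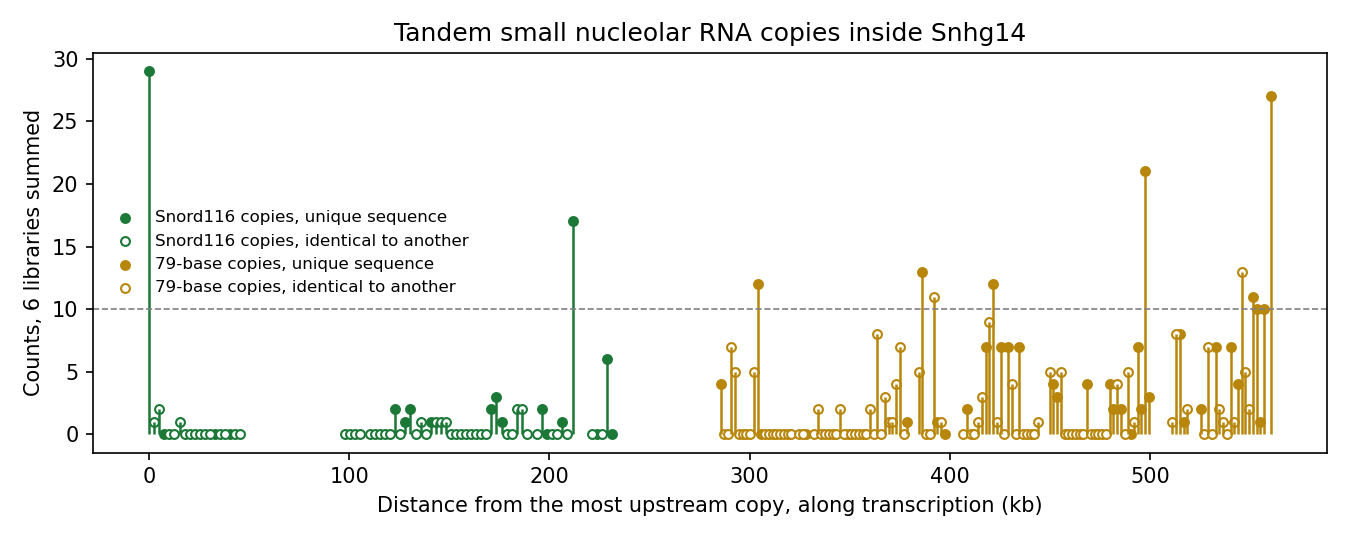
Counts summed over 6 libraries for each Snord116 and 79-base copy inside Snhg14, by distance along transcription from the most upstream copy in kilobases; filled points have a unique sequence, open points an identical copy, and the dashed line marks 10 counts. Snord116l12 (29 counts) is the most upstream copy and Gm24966 (27 counts) the most downstream one.

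Of the 47 members, 40 lie within a gene on the same strand, 23 of them in protein-coding genes (9 in ribosomal protein genes), 12 in Snhg14 and 5 in other lncRNA hosts. Of the 25 hosts, 21 were tested and edgeR called 0, with 3 at an unadjusted p below 0.05 (Rpl17, Rpl37 and Rpl7a) and 0 called by DESeq2 among the 12 with an adjusted p. Host log2 fold changes ran from -0.59 (Tsr1) to 0.82 (Rpl17). Tsr1 holds Gm22771 and another member, and Rpl17 holds Snord58b. The level of Snord58b was lower after 4-AP while that of its host was higher, neither past the threshold. Snord58b reached the counts required of a member in the controls alone, so its lower level also goes with how it was chosen. Across the 35 members with a tested host, the fold changes of member and host had Pearson r 0.25 and Spearman rho 0.31. This is a description over genes that share libraries and, in part, hosts.

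Reads from the intron of a host transcript at the place of a snoRNA cannot be told from the mature RNA. Per kilobase, 18 of the 39 members with a counted host were denser than the exons of that host, with a median ratio of 0.892. The median was 3.38 for scaRNAs and 0.857 for snoRNAs. Scarna13 was highest, at 269 times the density of Snhg10, which had 9 counts, and Snora62 lowest, at 0.106 times that of the ribosomal protein gene Rpsa. Gm25395 and Scarna6 were 7.98 and 3.38 times as dense as Atg16l1, and Snord49a and Snord49b 6.30 and 2.06 times as dense as 2410006H16Rik.

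The proteins that carry these RNAs showed no call. Of 13 C/D snoRNP genes, such as Fbl and Nop58, 11 were tested and 0 rose or fell (median log2 fold change 0.08). Of 6 H/ACA genes, such as Dkc1 and Nhp2, 4 were tested (0.03), of 17 Cajal body and scaRNP genes, such as Coil and Wrap53, 12 were tested (-0.10), and of 11 degradation and end processing genes 9 were tested (0.12). edgeR called 0 of these 36, with 0 at an unadjusted p below 0.05, and DESeq2 called 0 but gave an adjusted p for only 2. Of 48 known snoRNA host genes, 36 were tested and edgeR called 0 (median 0.12), with 5 at an unadjusted p below 0.05 and 0 called by DESeq2 among the 18 with an adjusted p. The median of all genes tested was -0.008.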

How the data were processed

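The authors deposited whole-number read counts per gene for 6 libraries. The submitters' processing notes name STAR 2.5.3a, featureCounts and the build mm10. Settings for strand and multi-mapping reads, and the annotation release, are not given in the sources used. Of 55604 identifiers, 54809 matched GENCODE M21; the 795 others held 0.00715% of counts. Classes were taken from symbols (Snord, Snora) and, for scaRNAs, from the biotype. The members and gene lists were chosen with earlier results of these data known. Named genes are the 6 most counted of each class, the tested members with the 5 largest and 5 smallest fold changes, Snord115, Snord116, U3, U8, U13 and U17 genes, and hosts; others are marked, and 1 gene that the rule names is not reported here.

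Library sizes were corrected by the trimmed mean of M-values, and genes were filtered with filterByExpr (minimum count 10, minimum total 15) and tested over all genes with edgeR 4.0.16 (quasi-likelihood, robust, group only) in R 4.3.3, with Benjamini-Hochberg adjustment at 0.05. The script was tested on simulated data. DESeq2 1.42.0, other scalings, filters, a replicate block and each library left out were alternatives. Folding used RNAfold 2.7.2. Intervals are Wilson 95% or from edgeR; Wilson intervals and floors of 3 counts cover counting error only. Between any 2 libraries the chi-square over genes was at least 8.52 per degree of freedom, so none looked like a repeat of another.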

Additional observations from a re-analysis of the deposited data

How the results depend on the processing

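edgeR called 0 members under each scaling, filter and left-out library, and DESeq2 called 0. The count at an unadjusted p below 0.05 rose from 0 to 3 of 8 without 4-AP replicate 2, where the smallest adjusted p was 0.185, and was 0 to 6 of 47 without a filter and with 1 library left out, where it was 0.105 to 0.741.

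Scaling by total counts moved the median of all genes to -0.22, that of the 7 scaRNAs from -0.005 to -0.21 and that of the 8 tested members from 0.11 to -0.0944. With 1 library left out, the scaRNA median ran from -0.10 to 0.20. The log2 ratio of Snord shares went from -0.15 to 0.47 with only the 2 genes of at least 30 counts. That of Snora shares went from -0.58 to 0.11 without Snora57, its most abundant member together with Snora78. Classing by boxes, chosen after seeing the data, gave a C/D to H/ACA ratio of 2.48 in place of 4.39. The groups then no longer overlapped, but only narrowly. The lowest 4-AP ratio was 2.5 (replicate 3) and the highest control ratio 2.44 (replicate 2). Gm24119, Snora57 and Snora17, of the H/ACA type, and Snord87, of the C/D type, reached the counts required of a member in the controls alone. This separation therefore also goes with how members were chosen.

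Gm25395, at -0.005, turned to 0.015 with DESeq2, 0.012 with relative log expression and 0.020 with upper quartile scaling. With 1 library left out it ran from -0.21 to 0.23, Scarna13 from -0.19 to 0.053, Gm23119 from -0.48 (without 4-AP replicate 3) to 0.85, Gm22009 from -0.25 to 0.093 and Gm22442 from -0.73 to 0.41 (without 4-AP replicate 2). The cause was not tested.

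The replicate block called 0 of the 8 (smallest adjusted p 0.365, scaRNA median -0.02). The numbers are not shown to pair the samples, since deviations of equal numbers correlated at -0.002, 0.113 and 0.025, and not every library correlated best with its own number.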

Other observations

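Other structured RNAs were counted in the same libraries. Of 16 tested genes of the snRNA biotype, which includes spliceosomal RNAs, edgeR called 0 higher and 2 lower after 4-AP. Over all genes tested, edgeR called 0.334% higher and 0.509% lower. The 2 snRNA genes were Gm22068 (log2 fold change -1.69, adjusted p = 0.0364) and Gm23804 (-1.50, adjusted p = 0.0142), both named after their values were seen. Which of the 16 are modified by scaRNAs was not tested. The median over the 16 was -0.81, beside -0.005 for the 7 scaRNAs. As a share of counts the snRNA genes held 0.429%, 1.31% and 2.23% after 4-AP against 2.42%, 4.25% and 2.44% in controls, without overlap, but on the scaled level the groups overlap, and Gm22513 (adjusted p = 0.611 in edgeR) held 97.2% of the snRNA counts. Rn7sk, an inhibitor of transcription elongation, had a log2 fold change of -0.16, Rpph1, the RNA of RNase P, 0.45 and the vault RNA Vaultrc5 -0.15, none past the threshold in edgeR. Rmrp had 0 counts in every library and the telomerase RNA Terc, itself an H/ACA RNA, had 16.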
